A study of Danio rerio with 12 samples.

Results

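The aminoacyl-tRNA synthetases and the genes of the amino acid stress response were followed in cells sorted from the heads of zebrafish larvae after a brain wound. The sort aimed at macrophages and microglia, and neutrophil markers were also present, as given below. A list of 40 gene names was matched to the gene names of the deposited table without regard to case. Of these, 39 were found, out of 22962 genes in the table, and the name *lars* matched none. All 39 had enough reads to be tested. They were 19 cytosolic and 6 mitochondrial synthetases, 5 transcription factors (*atf4a*, *atf4b*, *atf5a*, *atf5b*, *ddit3*), 4 stress effectors (*asns*, *chac1*, *trib3*, *sesn2*) and 5 enzymes of serine synthesis and mitochondrial one-carbon metabolism (*psat1*, *phgdh*, *psph*, *shmt2*, *mthfd2*).

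All larvae carried the *mpeg1:GFP* transgene, whose promoter labels microglia and peripheral macrophages alike, and were used at 4 dpf. In the injured group, the optic tectum was pierced with a metal pin and the GFP+ cells of the heads were sorted at 2 h post injury (2 hpi, 3 libraries, replicates 1, 2 and 4). The sham group went through anaesthesia and mounting in agarose but was not pierced, and its cells were collected in the same way (6 libraries). Each library pooled the cells of about 180 larvae. The labels give 3 more injured samples, which were not analysed here. The authors left them out because of their duplication and mapping rates and because they lay away from the other samples in a principal component analysis, a ground that uses expression itself. Values are CPM, reads on a gene relative to all reads on genes in the library, scaled with TMM factors, which even out differences in library composition. Levels are compared only within a gene, since they were not divided by transcript length.

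Aminoacyl-tRNA synthetases attach each amino acid to its tRNA and so set the supply of substrate for translation. Most cells use a cytosolic and a mitochondrial set encoded for the most part, but not throughout, by different genes. Several cytosolic members are held together in the multisynthetase complex. In mammals and yeast, uncharged tRNA activates the kinase Gcn2, which phosphorylates the initiation factor eIF2α. Phosphorylated eIF2α lowers general translation but favours translation of the Atf4 mRNA, and in mammals ATF4 then activates genes of amino acid synthesis and uptake, synthetase genes, and the stress regulators *DDIT3*, *TRIB3*, *CHAC1* and *SESN2*. Since ATF4 is controlled to a large extent by translation and protein stability, its mRNA level is not a measure of its activity.

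Reads on genes were 6754699 to 7156275 per library at 2 hpi and 6868772 to 8180104 in sham. All 10 markers of the macrophage lineage exceeded 10 CPM in every library, and their summed level was 10161.6 to 11244.5 CPM at 2 hpi and 8430.4 to 9958 CPM in sham. One of them, *spi1b*, rose (log2FC 0.50, standard error 0.11, FDR = 0.00751 in limma), as did *slc7a7* among 6 markers of microglia (log2FC 0.85, standard error 0.11, FDR = 1.55e-05). No other marker of either list was called. Of the 10 macrophage markers, 8 had a log2FC above 0 and 2 below (*irf8* and *csf1rb*, both -0.19). Of the 6 microglial markers, 5 were above 0 and 1 below (*c1qa*, -0.58). The 4 neutrophil markers found in the table were also present in every library. Their summed levels were 5114 to 6689.6 CPM at 2 hpi and 5895 to 7737 CPM in sham. None of the 4 was called, and 1 had a log2FC above 0 and 3 below. The lowest was that of *mpx* (log2FC -0.33, 95% interval -0.58 to -0.08, FDR = 0.125 in limma), with 2 libraries at 2 hpi below all sham libraries. Summed levels were 27.2 to 55.6 CPM at 2 hpi and 22.9 to 87.1 CPM in sham for 6 neuronal markers, of which *gap43* was at 0 in at least 1 library of each group. They were 82.0 to 114 CPM at 2 hpi and 67.6 to 138 CPM in sham for 4 erythrocyte markers, and 51.2 to 83.7 CPM at 2 hpi and 44.7 to 81.5 CPM in sham for 5 keratinocyte markers. The part of these cells in the results below was not tested. Sham replicate 3 stood apart on the first principal component over all tested genes, at -57.8 against -25.8 to -0.888 for the other sham libraries and 34.2 to 47.3 for those at 2 hpi, and its effect on the calls is given with them. In such bulk libraries, fewer cells of a type and less RNA per cell cannot be told apart.

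Of the 39 genes, 2 rose after injury at FDR<0.01 (limma on log2(CPM + 0.5), Benjamini-Hochberg adjustment over 16085 tested genes), namely *trib3* and *rars*. None fell at this threshold, and 1 member was lower at an unadjusted p below 0.05. Among all tested genes, 2.75% were called in the same test (2.13% rose and 0.628% fell), and the share of members called, 5.13%, rests on 2 genes. At FDR<0.05 *trib3* and *rars* were still the only members called, against 5.67% of all genes (3.64% higher and 2.03% lower). An unadjusted p below 0.05 was found for 4 members (*trib3*, *rars* and *chac1* higher, *aars2* lower), or 10.3%, against 17.6% of all genes (8.83% higher and 8.73% lower). A log2FC above 0 was found for 27 members (69.2%), against 47.9% of all genes. Scaling by library size alone shifted the median log2FC of all genes by -0.11, and then 18 members and 37.1% of all genes had a log2FC above 0. The groups did not overlap for 2 members that were higher at 2 hpi, again *trib3* and *rars*, against 5.73% of all genes, and for 0 members that were lower, against 4.61%. With edgeR's quasi-likelihood test and with DESeq2 on the recovered reads, *trib3* and *rars* were again the members called as higher and 0 members were called as lower, with 1 member lower at an unadjusted p below 0.05 in each.

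The pseudokinase gene *trib3* (ENSDARG00000016200), whose mammalian product restrains Akt and ATF4 and is itself induced through ATF4 and CHOP, had 47.5, 75.9 and 52.1 CPM in replicates 1, 2 and 4 at 2 hpi, against a lowest, median and highest sham value of 23.5, 30.5 and 36.0 CPM. No library at 2 hpi was within the sham range, and replicate 2 was the highest by a wide margin. The means were 58.5 ± 15.3 CPM at 2 hpi (SD, n = 3) and 29.7 ± 4.59 CPM in sham (SD, n = 6), a separation beyond the replicate spread (log2FC 0.95, standard error 0.20, FDR = 0.00485 in limma). This corresponds to 1.93-fold, with a 95% interval of 1.45- to 2.58-fold. A two-sided exact permutation test on the CPM gave p = 0.0119, the smallest value that 3 against 6 libraries allow. Between 313 and 489 reads stood behind each value at 2 hpi, and between 180 and 264 in sham. The call was lost when replicate 2 at 2 hpi (log2FC 0.75, FDR = 0.0625), replicate 4 at 2 hpi (log2FC 1.02, FDR = 0.0180) or sham replicate 2 (log2FC 0.91, FDR = 0.0117) was left out of the limma fit. It was also lost with scaling by library size alone (log2FC 0.83, FDR = 0.0160). Without sham replicate 3, *trib3* was still called, with a log2FC of 0.89.

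**Figure D1:**
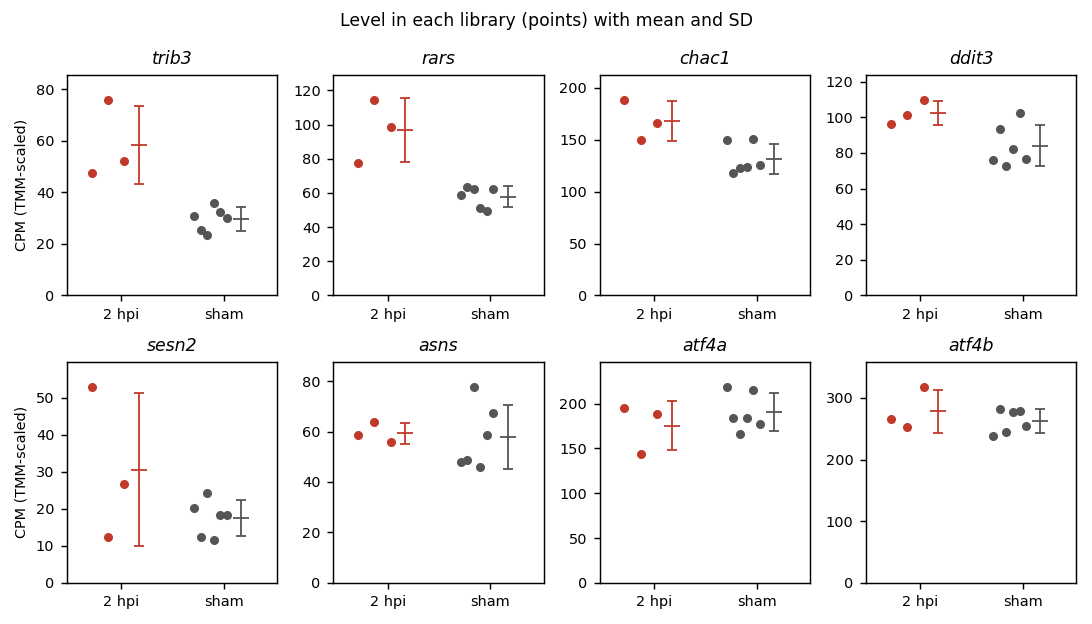
Level of 8 member genes in each library (points, TMM-scaled CPM, axes from 0) at 2 hpi (red, 3 libraries) and in sham (grey, 6 libraries), with the mean and SD beside the points. For *trib3* and *rars* the lowest point at 2 hpi (47.5 and 77.3 CPM) is higher than the highest sham point, whereas the groups overlap for the other 6 genes, with *sesn2* at 2 hpi spread from 12.3 to 52.8 CPM.

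Among the cytosolic synthetases, *rars* (ENSDARG00000054530), which encodes arginyl-tRNA synthetase, was the only gene called in limma at FDR<0.01. It had 77.3, 114 and 98.8 CPM in replicates 1, 2 and 4 at 2 hpi, against a lowest, median and highest sham value of 49.4, 60.5 and 63.4 CPM. The groups did not overlap, and replicate 1 at 2 hpi lay closest to sham. The means were 96.8 ± 18.7 CPM at 2 hpi (SD, n = 3) and 57.8 ± 6.12 CPM in sham (SD, n = 6) (log2FC 0.73, standard error 0.16, FDR = 0.00730 in limma), a difference of 1.66-fold with a 95% interval of 1.31- to 2.09-fold. The exact permutation test on the CPM gave p = 0.0119, again the smallest possible. The values rested on 509 to 737 reads at 2 hpi and 351 to 545 in sham. *rars* was called in 13 of 21 alternative fits, against 17 of 21 for *trib3*. The 21 include the main fit at an FDR of 0.05, which any gene called at 0.01 passes. It was lost in limma without replicate 2 at 2 hpi (log2FC 0.60, FDR = 0.0694), without replicate 4 at 2 hpi (log2FC 0.70, FDR = 0.0451), and without any 1 of sham replicates 1, 2, 4 and 5 (log2FC 0.73, 0.76, 0.69 and 0.68, FDR = 0.0135, 0.0101, 0.0196 and 0.0170). With scaling by library size alone the FDR was 0.0247 (log2FC 0.61), and with no filter on low values it was 0.0115 (log2FC 0.73). Without sham replicate 3, *rars* was called with a log2FC of 0.75.

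The other 18 cytosolic synthetases had log2FC values between -0.33 and 0.31, and none of them passed an FDR of 0.05. For all 18, the 95% interval lay within a log2FC of -1 to 1, and for 14 it lay within a fold of 1.5 in either direction. Of the 19 cytosolic genes, 14 had a log2FC above 0 with TMM factors, as with RLE and upper quartile scaling, and 9 with scaling by library size alone, under which 37.1% of all genes were above 0. The median log2FC of the 19 was 0.11 with TMM factors, beside -0.02 over all tested genes, and -0.01 with library size alone, beside -0.13 over all tested genes.

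The genes closest to the threshold in this family were *nars*, *sars* and *iars*. For *nars* (asparaginyl-tRNA synthetase) the values were 256, 196 and 199 CPM in replicates 1, 2 and 4 at 2 hpi, against a lowest, median and highest sham value of 133, 176 and 223 CPM (log2FC 0.31, 95% interval -0.03 to 0.64, FDR = 0.341 in limma). Replicate 1 at 2 hpi alone lay above the sham range, which was itself wide. The values of *sars* (seryl-tRNA synthetase) were 205, 144 and 174 CPM in replicates 1, 2 and 4 at 2 hpi, against a lowest, median and highest sham value of 129.9, 143 and 166 CPM (log2FC 0.25, 95% interval -0.03 to 0.53, FDR = 0.362). Replicates 1 and 4 at 2 hpi were above all sham libraries and replicate 2 was within the sham range. For *iars* (isoleucyl-tRNA synthetase) the values at 2 hpi were close to each other, at 111, 116 and 110.0 CPM, and sham ranged from 70.7 to 111 CPM (log2FC 0.26, 95% interval -0.05 to 0.56, FDR = 0.390).

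At the other end of the family, *farsa* and *farsb* encode the alpha and beta subunits of the same enzyme, phenylalanyl-tRNA synthetase. The values of *farsa* were 49.5, 32.5 and 87.0 CPM in replicates 1, 2 and 4 at 2 hpi, against a lowest, median and highest sham value of 47.0, 62.5 and 96.4 CPM (log2FC -0.33, 95% interval -0.85 to 0.19, FDR = 0.543). Both groups spread widely, and replicate 4 at 2 hpi was far above replicate 2. For *farsb*, the values were 89.7, 93.9 and 77.0 CPM at 2 hpi and 67.2 to 106 CPM in sham (log2FC -0.05, 95% interval -0.38 to 0.27, FDR = 0.915). The cytosolic synthetase with the fewest reads was *WARS* (tryptophanyl-tRNA synthetase), with 45 to 116 reads at 2 hpi and 57 to 89 reads in sham, and its interval was the widest of the cytosolic set (log2FC 0.23, 95% interval -0.45 to 0.91, FDR = 0.782). The narrowest intervals were those of genes with over 1000 reads in every library, among them *dars* (aspartyl, log2FC 0.17, 95% interval -0.06 to 0.41, FDR = 0.466) and *kars* (lysyl, log2FC 0.01, 95% interval -0.23 to 0.26, FDR = 0.974).

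The remaining cytosolic genes were not called either. Threonyl- (*tars*, log2FC 0.23), methionyl- (*mars*, 0.15), glutamyl-prolyl- (*eprs*, 0.13), glycyl- (*gars*, 0.11), tyrosyl- (*yars*, 0.10), histidyl- (*hars*, 0.08) and alanyl-tRNA synthetase (*aars*, 0.03) had values above 0. Glutaminyl- (*qars*, -0.03), valyl- (*vars*, -0.13) and cysteinyl-tRNA synthetase (*cars*, -0.26) had values below 0. Their FDR was between 0.444 and 0.950 in limma. The identifier listed as *hars* is paired with HARS2 in the gene name table, so that its value may not stand for the cytosolic enzyme alone. Whether other genes listed here as cytosolic also encode a mitochondrial enzyme was not examined.

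Several of these synthetases share the multisynthetase complex, which in vertebrates also contains arginyl-tRNA synthetase. This subset was formed after the values had been seen. The 6 other members of the complex in the list, *dars*, *eprs*, *iars*, *kars*, *mars* and *qars*, had log2FC values of -0.03 to 0.26, and the highest upper limit of their 95% intervals was 0.56. The log2FC of *rars* was 0.73, with a lower limit of 0.39, so that the intervals of *rars* and *iars* (upper limit 0.56) overlapped. The difference between the genes was not tested. Of the scaffold proteins, *aimp2* had a log2FC of 0.18 and *eef1e1* of -0.57 (FDR = 0.707 and 0.518). Of the leucyl-tRNA synthetases, which the table lists as *larsa* and *larsb* in place of *lars*, *larsb* had 55.9, 58.5 and 60.4 CPM at 2 hpi and 46.7 to 57.2 CPM in sham (log2FC 0.19, 95% interval -0.14 to 0.52, FDR = 0.592). The tested row of *larsa* (ENSDARG00000090988) had 14.4, 9.16 and 15.5 CPM at 2 hpi, against a sham median and highest value of 15.5 and 17.8 CPM (log2FC -0.20, 95% interval -0.78 to 0.38, FDR = 0.778).

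**Figure D2:**
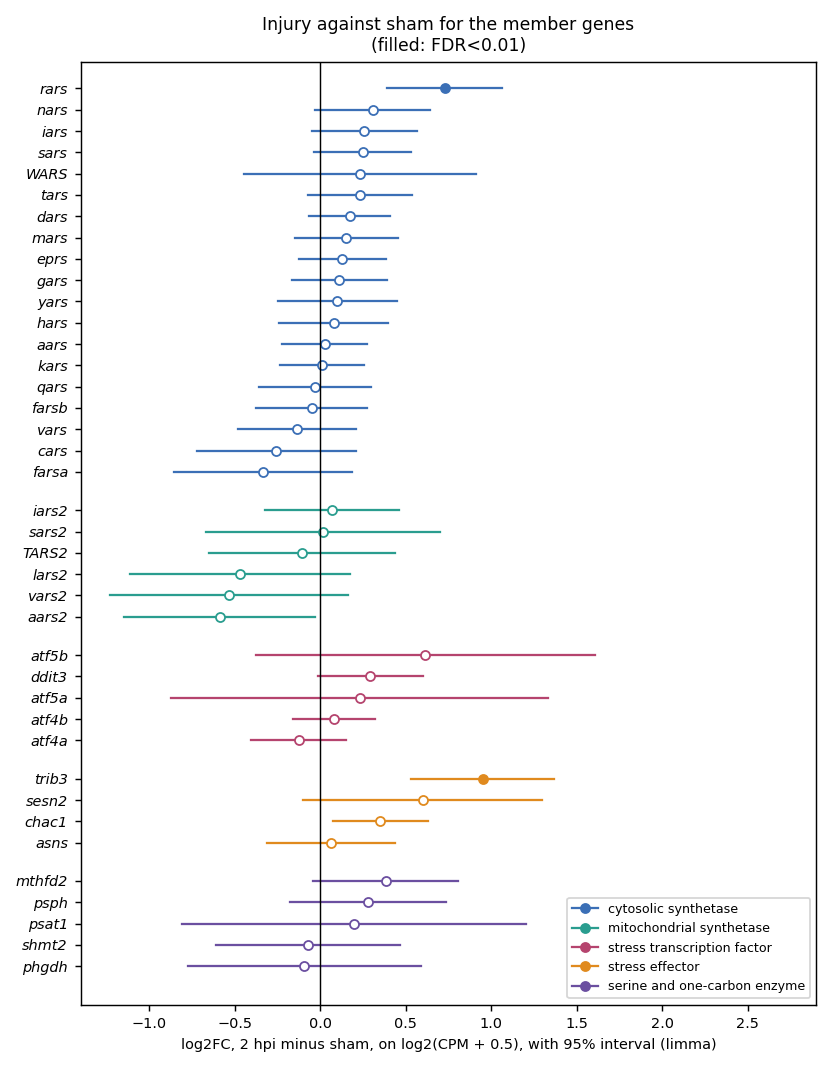
Log2FC at 2 hpi over sham for the 39 member genes (points) with the 95% interval of limma (bars), by role, on the log2(CPM + 0.5) scale. Filled points mark FDR<0.01, which only *rars* (0.73) and *trib3* (0.95) reached, and the intervals of all other genes but *chac1* and *aars2* include 0.

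The 6 mitochondrial synthetases had no gene called, with a median log2FC of -0.29. The lowest value was that of *aars2* (mitochondrial alanyl-tRNA synthetase), which had 13.1, 16.1 and 10.4 CPM in replicates 1, 2 and 4 at 2 hpi, against a lowest, median and highest sham value of 14.0, 18.9 and 31.5 CPM. Replicates 1 and 4 at 2 hpi were below every sham library and replicate 2 was within the sham range (log2FC -0.59, 95% interval -1.15 to -0.03, FDR = 0.255 in limma). The genes for the mitochondrial valyl and leucyl enzymes, *vars2* (log2FC -0.53) and *lars2* (-0.47), had between 41 and 146 reads in each library, and each had 1 library at 2 hpi below all sham libraries. *TARS2* (-0.11), *sars2* (0.02) and *iars2* (0.07) differed little. The 95% intervals of the 6 genes reached from -1.23 to 0.70, and a log2FC of -1 lay within those of *aars2*, *vars2* and *lars2*. With TMM factors 4 of the 6 had a log2FC below 0, beside 52.1% of all genes, and with library size alone all 6 did, beside 62.9% of all genes.

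A further 10 rows of mitochondrial synthetases outside the member list were tested. Of these, 0 were called in limma, and 1 had an unadjusted p below 0.05 (*cars2*, the cysteinyl enzyme, lower). *cars2* had 4.5 to 11.1 CPM at 2 hpi and 7.32 to 18.7 CPM in sham (log2FC -0.88, FDR = 0.163), with overlap between the groups. The highest log2FC was that of *pars2* (1.05, standard error 0.52, FDR = 0.299), a gene with as few as 5 reads in a library. Over both mitochondrial lists, 9 of 16 rows had a log2FC below 0 and 7 above, with a median of -0.10.

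None of the 5 transcription factor genes was called in limma, and none had an unadjusted p below 0.05. For *atf4a* (ENSDARG00000039515) the values were 195, 144 and 188 CPM in replicates 1, 2 and 4 at 2 hpi, against a lowest, median and highest sham value of 166, 184 and 218 CPM (log2FC -0.13, 95% interval -0.40 to 0.15, FDR = 0.699 in limma). Replicate 2 at 2 hpi lay below the sham range and the others within it. Its copy *atf4b* (ENSDARG00000038141) had 265, 252 and 317 CPM in replicates 1, 2 and 4 at 2 hpi, against a lowest, median and highest sham value of 238, 265 and 282 CPM (log2FC 0.08, 95% interval -0.16 to 0.32, FDR = 0.789), with replicate 4 above the sham range. For both copies the interval excluded a change of 1.5-fold in either direction. At least 926 reads stood behind each value of *atf4a* and 1623 behind each value of *atf4b*.

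The *atf5* pair was measured with far fewer reads. For *atf5a* the values were 2.89, 7.61 and 1.17 CPM in replicates 1, 2 and 4 at 2 hpi, against a lowest, median and highest sham value of 1.39, 2.78 and 4.65 CPM (log2FC 0.23, 95% interval -0.87 to 1.33, FDR = 0.878), on 8 to 49 reads at 2 hpi and 10 to 33 in sham. For *atf5b* they were 8.81, 4.19 and 4.11 CPM in replicates 1, 2 and 4 at 2 hpi, against a lowest, median and highest sham value of 1.11, 4.03 and 5.49 CPM (log2FC 0.61, 95% interval -0.38 to 1.60, FDR = 0.561), on 27 to 58 reads at 2 hpi and 8 to 44 in sham. In each case 1 library at 2 hpi stood above the rest, replicate 2 for *atf5a* and replicate 1 for *atf5b*. A log2FC of 1 lay within both intervals.

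The gene for CHOP, *ddit3* (ENSDARG00000059836), a transcription factor linked to apoptosis under prolonged stress, had 96.3, 101 and 109.7 CPM in replicates 1, 2 and 4 at 2 hpi, against a lowest, median and highest sham value of 72.8, 79.5 and 102 CPM. Replicate 4 at 2 hpi was above all sham libraries, and replicates 1 and 2 were above all of them but sham replicate 5. The means were 102 ± 6.79 CPM at 2 hpi (SD, n = 3) and 83.9 ± 11.6 CPM in sham (SD, n = 6) (log2FC 0.29, 95% interval -0.01 to 0.60, FDR = 0.311 in limma; exact permutation test, p = 0.0714). The difference did not pass the threshold in any of the 21 alternative fits.

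Apart from *trib3*, the effector genes were not called in limma. *chac1* (ENSDARG00000070426), which encodes an enzyme that degrades glutathione, had 188, 149.8 and 166 CPM in replicates 1, 2 and 4 at 2 hpi, against a lowest, median and highest sham value of 118, 125 and 151 CPM. Replicates 1 and 4 at 2 hpi were above all sham libraries, while replicate 2 lay just under the highest of them. The means were 168 ± 19.3 CPM at 2 hpi (SD, n = 3) and 132 ± 14.5 CPM in sham (SD, n = 6) (log2FC 0.35, 95% interval 0.08 to 0.63, FDR = 0.147, unadjusted p = 0.0150 in limma). The exact permutation test on the CPM gave p = 0.0238 for *chac1*, unadjusted. The difference, of 1.28-fold, did not pass the correction in the 21 alternative fits either. *sesn2* (ENSDARG00000070012) encodes a sestrin that in mammals senses leucine upstream of mTORC1. It had 52.8, 12.3 and 26.7 CPM in replicates 1, 2 and 4 at 2 hpi, against a lowest, median and highest sham value of 11.5, 18.3 and 24.3 CPM (log2FC 0.60, 95% interval -0.10 to 1.30, FDR = 0.379). Replicate 1 was far above the sham range, replicate 4 slightly above it and replicate 2 near its lower end, so that the spread at 2 hpi exceeded the difference between the groups. Without replicate 1 at 2 hpi the log2FC of *sesn2* was 0.09, and without replicate 2 at 2 hpi it was 1.12 (FDR = 0.0471 in limma). *asns* (ENSDARG00000016375), asparagine synthetase and a standard target of ATF4 in mammals, had 58.5, 63.7 and 55.7 CPM in replicates 1, 2 and 4 at 2 hpi, against a lowest, median and highest sham value of 46.0, 53.7 and 77.6 CPM (log2FC 0.06, 95% interval -0.31 to 0.44, FDR = 0.909). All libraries at 2 hpi lay within the sham range.

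**Figure D3:**
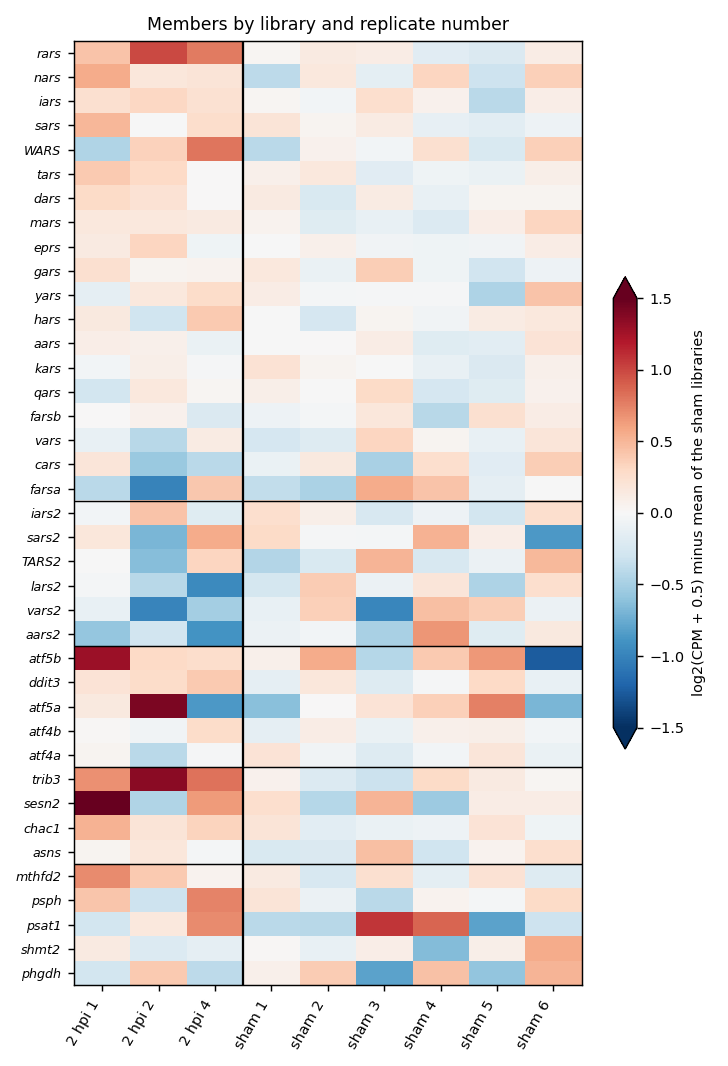
Level of each member gene in each library as log2(CPM + 0.5) minus the mean of the 6 sham libraries (colour, red above and blue below, scale ending at 1.5 in either direction), with the 3 libraries at 2 hpi left of the line and genes grouped by role and ordered by log2FC. The rows of *rars* and *trib3* are red in all 3 libraries at 2 hpi, as are paler rows of genes that were not called, such as *chac1*, *ddit3* and *iars*. The rows of *sesn2*, *atf5a* and *atf5b* each show 1 library at 2 hpi far above the others.

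For the enzymes that make serine from a glycolytic intermediate, *phgdh* (first step) had 11.4, 18.3 and 10.4 CPM in replicates 1, 2 and 4 at 2 hpi, against a lowest, median and highest sham value of 7.71, 16.4 and 19.9 CPM (log2FC -0.09, 95% interval -0.77 to 0.59, FDR = 0.927). *psat1* (second step) was low in all libraries, with 2.89 to 6.16 CPM at 2 hpi and 1.83 to 8.10 CPM in sham, on 19 to 42 and 13 to 62 reads (log2FC 0.20, 95% interval -0.81 to 1.2, FDR = 0.887). *psph* (last step) had 48.1, 28.7 and 60.3 CPM at 2 hpi and 26.9 to 43.7 CPM in sham (log2FC 0.28, 95% interval -0.17 to 0.74, FDR = 0.563). None of the 3 genes was called, and replicate 2 at 2 hpi had the highest value at 2 hpi for *phgdh* and the lowest for *psph*. Of the mitochondrial one-carbon enzymes, that of *shmt2* passes a carbon of serine to folate. *shmt2* had 20.8, 16.3 and 17.2 CPM at 2 hpi and 11.9 to 28.1 CPM in sham (log2FC -0.07, 95% interval -0.61 to 0.47, FDR = 0.929). For *mthfd2* the values were 50.3, 40.1 and 31.5 CPM in replicates 1, 2 and 4 at 2 hpi, against a lowest, median and highest sham value of 25.7, 30.4 and 36.1 CPM (log2FC 0.38, 95% interval -0.04 to 0.81, FDR = 0.347), with 2 of 3 libraries above the sham range.

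The members also varied among sham libraries. The highest sham value was less than 1.5 times the lowest for 17 genes and more than 2 times the lowest for 10 (*farsa*, *aars2*, *sars2*, *vars2*, *atf5a*, *atf5b*, *sesn2*, *psat1*, *phgdh* and *shmt2*). Sham replicate 3 had the highest value of all 9 libraries for 7 members and the lowest for 5, and sham replicate 5 had the lowest for 8. At 2 hpi, replicate 1 had the highest value for 8 members, and replicate 2 had the highest for 6 and the lowest for 7. Summed over the 19 cytosolic synthetases, the level was 2675 to 2845 CPM at 2 hpi and 2304 to 2726 CPM in sham, with overlap. The sums of the mitochondrial synthetases, of the transcription factors and of the serine and one-carbon enzymes also overlapped. Those of the stress effectors (300 to 347 CPM at 2 hpi, 204 to 260 CPM in sham) and of all members (3756 to 4016 and 3391 to 3745 CPM) did not. These sums, on TMM-scaled CPM, were not tested.

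The other genes of the pathway came from a list that was written with earlier results of these data known. None of the 6 genes of the eIF2α kinases and their partners was called in limma. *gcn1*, the partner of Gcn2, had 354, 328 and 294 CPM at 2 hpi and 279.5 to 342 CPM in sham (log2FC 0.09, 95% interval -0.14 to 0.33, FDR = 0.747). Gcn2 itself (*EIF2AK4*, log2FC 0.20), *eif2ak3* (Perk, 0.03) and *eif2ak1* (Hri, -0.07) had intervals that included 0, and the lowest value was that of *eif2ak2* (Pkr, -0.75, FDR = 0.197). Of the 4 genes of eIF2α and its phosphatase 0 were called, with *ppp1r15a*, the stress-induced phosphatase subunit (Gadd34), at 29.8, 53.7 and 28.7 CPM at 2 hpi and 31.2 to 67.3 CPM in sham (log2FC -0.47, 95% interval -0.97 to 0.03, FDR = 0.316). An unadjusted p below 0.05 in limma was found for *eif2ak2* only among these 10 genes.

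Of 24 further genes that could be tested from a list drawn up as ATF4 targets in mammals, 4 rose and 1 fell in limma at FDR<0.01, with a median log2FC of 0.15. Among all tested genes, 2.13% rose and 0.628% fell in the same test. The gene that fell, *sesn1*, was on this list with *sesn3*, although both are known mainly as targets of other factors, as given below. The counts and the median of the list include them. With TMM factors 16 of the 24 genes had a log2FC above 0, beside 47.9% of all genes, and with library size alone 13 did, beside 37.1% of all genes. Because this list too was written with earlier results of these data known, setting its counts beside those shares is not a test of it. The genes that rose were *atf3* (stress-induced transcription factor, log2FC 2.06), *slc7a11* (cystine-glutamate exchanger, 1.48), *slc3a2b* (heavy chain of amino acid exchangers, 1.30) and *cebpb* (C/EBPβ, 1.1). Each of these 4 is also known to respond to other stimuli, and each was called in all 21 alternative fits. The values of *slc7a11* were 48.9, 86.6 and 62.0 CPM in replicates 1, 2 and 4 at 2 hpi, against a lowest, median and highest sham value of 16.9, 21.4 and 37.0 CPM (log2FC 1.48, standard error 0.24, FDR = 2.90e-04). *slc3a2b* had 272, 252 and 239 CPM in replicates 1, 2 and 4 at 2 hpi, against a lowest, median and highest sham value of 78.7, 103 and 137 CPM (log2FC 1.30, standard error 0.15, FDR = 4.73e-06). Its copy *slc3a2a* had 743, 546 and 528 CPM at 2 hpi and 503 to 702 CPM in sham (log2FC 0.00, 95% interval -0.27 to 0.28, FDR = 0.992). The light chain gene *slc7a5* did not overlap between the groups, at 21.1, 18.0 and 45.9 CPM at 2 hpi and 10.7 to 16.2 CPM in sham (log2FC 1.03, FDR = 0.0363). In the other direction, 8 of the 24 genes had a log2FC below 0 with TMM factors. Among them, *eif4ebp3l* was lower without overlap but was not called. It had 15.5 to 19.4 CPM at 2 hpi and 19.8 to 38.8 CPM in sham (log2FC -0.63, FDR = 0.157 in limma).

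Of the sestrin genes, *sesn1* (ENSDARG00000020693) was the only one called in limma. It fell, with 129, 139.7 and 115 CPM in replicates 1, 2 and 4 at 2 hpi, against a lowest, median and highest sham value of 261, 327 and 354 CPM. The groups were far apart (log2FC -1.32, standard error 0.12, FDR = 2.59e-07 in limma), and the log2FC was -1.44 to -1.2 in the 21 alternative fits, all of which called it. *sesn3* had 23.2, 27.2 and 22.9 CPM at 2 hpi and 32.4 to 51.9 CPM in sham, without overlap, but did not pass the threshold (log2FC -0.67, standard error 0.21, FDR = 0.0604). In mammals *SESN2* is the sestrin known to be induced by ATF4, while *SESN1* and *SESN3* are known mainly as targets of p53 and FoxO factors, and sestrins inhibit mTORC1 when amino acids or growth signals are short.

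**Figure D4:**
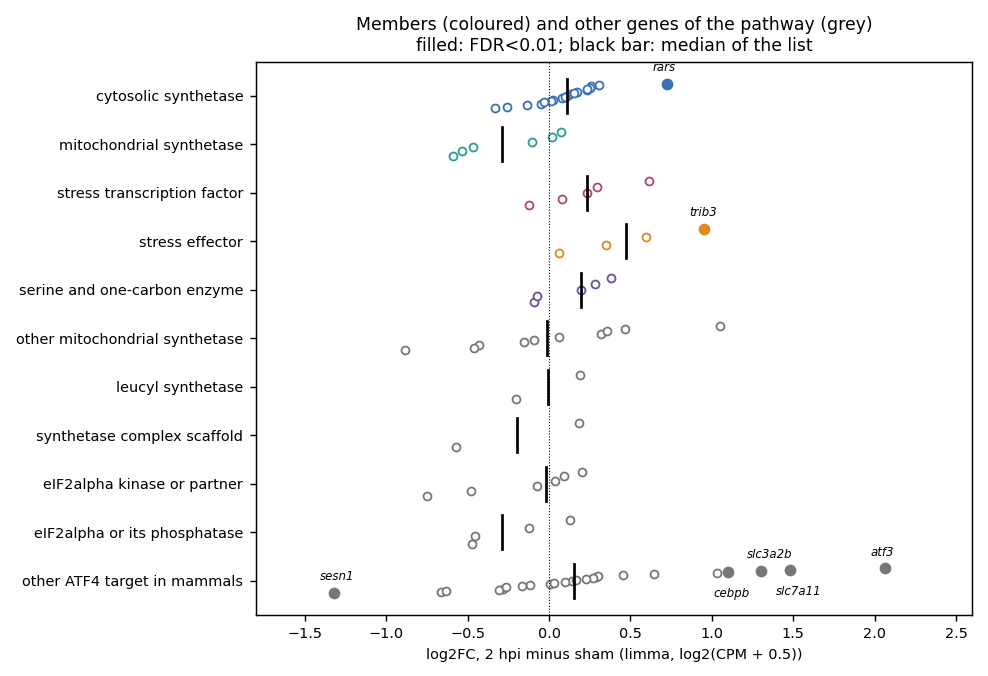
Log2FC at 2 hpi over sham (limma, log2(CPM + 0.5)) for the tested member genes by role (coloured points) and for the other genes of the pathway by list (grey points), with the median of each list as a black bar. Filled points mark FDR<0.01 and carry the gene name, and all other genes did not pass. The cytosolic synthetases apart from *rars* lie between -0.33 and 0.31, while *atf3*, *slc7a11*, *slc3a2b* and *cebpb* lie above 1.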

How the data were processed

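The deposited table gives signal values that the authors obtained as CPM, with each library size multiplied by its TMM factor. According to the paper and the submitters' processing notes, libraries were made from amplified cDNA, adapters were removed by cutadapt 1.9, STAR 2.5.2b mapped the reads to GRCz10, featureCounts 1.5.1 counted those on exons, and edgeR 3.20.1 was used after removal of genes with mostly near-zero counts. The filter's threshold and the annotation release are not given in the sources used here. The 5 columns of group means and of the authors' own comparison (fold change, p-value, FDR) were not used. The kits do not mark strand, so reads of overlapping genes cannot be told apart. In the RefSeq gene table (GRCz12tu, names only), 9 of the 39 members overlapped another gene, and *trib3* and *rars* did not.

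Dividing each library by its smallest step, which is worth 1 read, gave back whole reads for 100% of the 22962 genes (tolerance 0.01 reads). The limit of 3 reads corresponded to 0.349 to 0.466 CPM, which covers counting error only. Genes were kept with filterByExpr (minimum count 10, minimum total 15), which left 16085. Limma (trend option) compared the conditions, with no other term, on log2(CPM + 0.5), a scale that understates changes of low genes. FDR is the p-value after Benjamini-Hochberg adjustment over these genes, with FDR<0.01 as the threshold. The labels do not give clutches or days of the libraries, so p-values measure the spread between these libraries. For single genes, a two-sided exact permutation test ran through all 84 assignments of labels. Scripts were tested on simulated data. The software was Python 3.11.15 with matplotlib 3.10.9, and R 4.3.3 with DESeq2 1.42.0, limma 3.58.1 and edgeR 4.0.16.

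Members and lists were chosen with earlier results of these data known. The rule asked for values in each library for members with FDR<0.01, for the *atf4* and *atf5* copies and for *asns*, *ddit3*, *chac1* and *sesn2*. In the text, the sham libraries of these genes are given by their lowest, median and highest value. A gene that was on the pathway lists at first is not reported here. Other genes given in this detail were chosen after their values had been seen. The alternatives were RLE, upper quartile and library size scaling, edgeR's quasi-likelihood test, DESeq2 and limma-voom on recovered reads, pseudocounts of 0.1 and 1, no filter, at least 10 reads in every library, an FDR of 0.05, a replicate block and leaving out each library in turn.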

Additional observations from a re-analysis of the deposited data

How the results depend on the processing

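The count of 2 members higher after injury at FDR<0.01 was 0 with scaling by library size alone and 1 with no filter, and 0 to 2 when each of the 9 libraries was left out in turn. It was 2 in each of the other alternatives. The count of members lower was 0 in every fit. Under library size scaling, the log2FC was 0.83 for *trib3* and 0.61 for *rars*, neither of them called, and the median log2FC over all genes shifted by -0.11. Of the calls over all genes, 57.0% were then increases, against 77.2% with TMM factors. With no filter, *rars* kept its log2FC of 0.73 but missed the threshold, in a fit that tested more genes and took its variance trend from them. In the fits without 1 library, the log2FC was 0.75 to 1.08 for *trib3* and 0.60 to 0.88 for *rars*, with the call lost in 3 of 9 for *trib3* and in 6 of 9 for *rars*. The 37 members that were not called passed in no alternative. The sign of the log2FC changed for 9 of them with library size alone, where values near 0 follow the shift of all genes, and for at most 8 in any other fit.

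Samples of the 2 groups share the replicate numbers 1, 2 and 4, but the numbers were not taken as pairs, because their deviations from the group means correlated at 0.13, 0.11 and 0.02, and the last is under 0.1. The values for replicates 1 and 2 were higher than any between unlike numbers, the highest of which was 0.09. Replicate 4 did not correlate best with its own number in either group. These correlations do not settle whether the numbers are pairs. For RT-qPCR, which used some of the same samples, the study set injured and sham cDNA made on the same day against each other, but nothing ties the replicate numbers of the libraries to a day. With the replicate number as a block, fitted on replicates 1, 2 and 4 of both groups only, 2 members were higher and 0 lower (*trib3* log2FC 0.90, *rars* 0.73). Over all genes 648 were then called, against 443 in the main fit on all 9 libraries, so that both the samples and the model differed. Leaving out replicate 4 at 2 hpi gave 226 calls and leaving out replicate 1 at 2 hpi 264, DESeq2 gave 746, and an FDR of 0.05 gave 912. Of the members not called, *atf5a*, *atf5b*, *psat1* and *sesn2* had 95% intervals reaching above a log2FC of 1, and *aars2*, *lars2* and *vars2* below -1.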

Other observations

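Among sham libraries, *nars* was low where a microglial gene was high, a pattern noticed after the values had been seen and not tested. *nars* had 133, 157 and 141 CPM in sham replicates 1, 3 and 5, and 195, 217 and 223 CPM in sham replicates 2, 4 and 6. *apoeb*, an apolipoprotein gene used as a marker of microglia in larval zebrafish, had 6199, 5757 and 5822 CPM in the first set of libraries and 3674, 3653 and 3916 CPM in the second. The same sets were also apart for other genes, so the split was not particular to this pair. The microglial marker *p2ry12* had 172, 219 and 173 CPM in the first set and 129, 126 and 120 CPM in the second. The member *mthfd2* was higher in the first set, at 33.4, 36.1 and 35.5 CPM, against 25.7, 27.4 and 26.6 CPM. Of the other microglial markers, *slc7a7* had 461, 452 and 454 CPM in the first set and 398, 414 and 431 CPM in the second. *ccl34b.1* had 444, 285 and 367 CPM in the first set and 222, 267 and 195 CPM in the second. The microglial markers *havcr1* and *c1qa* overlapped between the sets. At 2 hpi the values of *nars* were 256, 196 and 199 CPM and those of *apoeb* 7218, 4539 and 5684 CPM in replicates 1, 2 and 4, where the highest *nars* and the highest *apoeb* were in the same library. The labels assign no batch to these libraries, and the cause was not tested.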
